A study of Mus musculus with 6 samples.

Results

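The Ifitm genes analysed here are Ifitm1, Ifitm2, Ifitm3 and Ifitm6, 4 members of a family of small membrane proteins. They were taken by name from a table of 38924 rows of gene expression in sorted mouse bone marrow cells. The group was chosen by its levels in these same 6 libraries, in which Ifitm1 and Ifitm3 had been noted for unlike patterns, so the levels of the 4 genes are given as a description and carry no test. All 4 passed the filter of at least 1 RPKM in at least 2 libraries. The C57BL/6 samples came from recipients of transplanted marrow into which Evi1-GFP or GFP had been introduced by transduction. The leukemia group carried Evi1-GFP and was collected 6 months after transplantation (2 libraries), and the preleukemia group carried Evi1-GFP and was collected at 4 weeks (2 libraries). The mock group carried GFP and was collected at 4 weeks (2 libraries). The age of the mice and the promoter of the vector are not given in the labels. All 6 libraries came from cells sorted as positive for GFP and for the progenitor receptor c-kit and negative for markers of mature lineages. No GFP group at 6 months was analysed here, so time and leukemia differ together wherever the leukemia libraries enter. Duplicates are stated, but not that each came from its own mouse, so p-values cover the variation among these 6 libraries, part or all of which may be technical.

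Interferons are secreted antiviral signals whose receptors act through Jak kinases and Stat factors, which switch on a broad set of genes that includes Ifitm1, Ifitm2 and Ifitm3. The proteins sit in the plasma membrane and in endosomes and hinder the fusion of enveloped viruses with the cell. Ifitm3 is found mainly in late endosomes and Ifitm1 mainly at the cell surface. Ifitm genes are also active without interferon in stem and progenitor cells. Ifitm6 is a rodent member without a known human counterpart and has been described in myeloid cells.

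The 4 genes lie in a cluster of 63.1 kb on chromosome 7 of the mouse build GRCm38 (GENCODE M21). Ifitm2 (ENSMUSG00000060591.9) spans 140954837 to 140955987 on the minus strand, Ifitm1 (ENSMUSG00000025491.14) 140967221 to 140969825 on the plus strand, Ifitm3 (ENSMUSG00000025492.6) 141009586 to 141010770 on the minus strand and Ifitm6 (ENSMUSG00000059108.4) 141015699 to 141017924 on the minus strand. All are protein coding. The members share this neighbourhood but differ in level between the groups. The 250 bases before the RefSeq start of each are therefore shown, on the strand of the gene. They are RefSeq windows on GRCm38.p6 at chr7:140967826-140968075 (plus strand), chr7:140955962-140956211 (minus), chr7:141010745-141010994 (minus) and chr7:141016893-141017142 (minus), matched by symbol for 4 of 4 members. A RefSeq start need not be the outermost base of the GENCODE span. The windows of Ifitm1 and Ifitm6 lie wholly inside their spans. The search below thus did not reach the bases before the outermost starts of Ifitm1 and Ifitm6. Capitals mark the core of the interferon-stimulated response element, searched as GAAA, any 2 bases and GAAA.
Ifitm1 upstream: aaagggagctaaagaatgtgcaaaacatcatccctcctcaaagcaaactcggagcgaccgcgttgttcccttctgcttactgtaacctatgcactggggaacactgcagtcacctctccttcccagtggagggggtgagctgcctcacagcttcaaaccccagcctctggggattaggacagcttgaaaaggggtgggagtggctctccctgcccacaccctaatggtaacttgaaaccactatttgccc
Ifitm2 upstream: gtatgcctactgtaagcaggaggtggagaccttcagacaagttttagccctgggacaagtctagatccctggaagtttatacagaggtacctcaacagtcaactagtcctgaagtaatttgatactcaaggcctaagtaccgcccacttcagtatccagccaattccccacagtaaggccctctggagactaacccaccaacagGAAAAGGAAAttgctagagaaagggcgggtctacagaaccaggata
Ifitm3 upstream: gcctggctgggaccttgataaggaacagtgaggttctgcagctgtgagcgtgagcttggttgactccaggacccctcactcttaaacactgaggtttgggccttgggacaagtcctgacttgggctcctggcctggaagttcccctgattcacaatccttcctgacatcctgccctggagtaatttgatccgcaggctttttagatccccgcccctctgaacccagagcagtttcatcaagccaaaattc
Ifitm6 upstream: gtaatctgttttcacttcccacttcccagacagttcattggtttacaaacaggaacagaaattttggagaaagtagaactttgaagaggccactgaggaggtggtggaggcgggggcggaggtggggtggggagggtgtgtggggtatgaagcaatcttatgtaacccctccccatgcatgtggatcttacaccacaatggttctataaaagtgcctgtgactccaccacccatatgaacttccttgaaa

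The same letters were searched on both strands in a window that ran on for 50 bases past each start. Ifitm2 held 1 match and Ifitm3 held 2, both of them just after its RefSeq start, and the windows of Ifitm1 and Ifitm6 held 0. Of 32851 RefSeq windows of this length, 3.44% held the core. Each match is shown with 10 bases on either side, with the core in capitals. The 2 stretches of Ifitm3 overlap.
Ifitm2 site at chr7:140955988-140956017: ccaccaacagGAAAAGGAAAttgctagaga
Ifitm3 site at chr7:141010723-141010752: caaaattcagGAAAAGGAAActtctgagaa
Ifitm3 site at chr7:141010706-141010735: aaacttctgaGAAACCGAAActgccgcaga
The matches at base -46 of Ifitm2 and at base 3 of Ifitm3 have the same 10 letters. A Stat site with the letters TTCNNNGAA was found once each in the windows of Ifitm3, where it overlaps a response element core, and Ifitm6 (8.30% of all windows). The letters AAGATAA and GATGAG, cores of the sites read by the Evi1 zinc fingers, were in none of the 4 windows (3.47% and 12.0% of all windows). These are descriptions of letters and say nothing of binding.

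Levels are in RPKM, a read number corrected for how long the transcript is and how deeply the library was sequenced. The spacing of the low values gave library totals of 16922486 to 21641305 reads. Kit, the gene for the sorted receptor, was at 46.8 to 69.2 RPKM in the 6 libraries. Cd3e and Ms4a1, markers of mature T and B cells, were at most 0.0411 and 0.0481 RPKM. Itgam, a myeloid integrin gene, was at 13.7 and 21.7 RPKM in leukemia, 37.1 and 53.2 in preleukemia, and 4.66 and 4.77 in mock, so the RNA of the sorted cells held a marker of mature myeloid cells in all groups. Mecom, the gene that encodes Evi1, was at 66.6 ± 6.90 RPKM in leukemia and 79.1 ± 1.49 in preleukemia, against 0.789 ± 0.0216 in mock (SD, n = 2 each), without a way to separate vector transcripts from those of the mouse locus. In bulk RNA, fewer cells that express a gene and less of its RNA per cell cannot be told apart.

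Ifitm1 was lower in leukemia than in preleukemia, and lower in preleukemia than in mock. It had 0.740 and 1.44 RPKM in the leukemia libraries, 13.2 and 14.0 RPKM in preleukemia, and 36.5 and 33.1 RPKM in mock. The 3 groups did not overlap. The leukemia values correspond to 17 and 31 reads, above the 0.131 and 0.140 RPKM that 3 reads would give, and the 2 libraries differ 1.95-fold, more than those of preleukemia (1.06-fold) or mock (1.10-fold). The leukemia mean was 0.0314 times the mock mean and 0.0803 times the preleukemia mean, and the preleukemia mean was 0.390 times the mock mean. On the scale of log2(RPKM + 1), used for all differences below, Ifitm1 differed by -4.12 (SE 0.17) in leukemia against mock, the 9th lowest of 10958 genes fitted. It differed by -1.29 (SE 0.17) in preleukemia against mock and by -2.82 (SE 0.17) in leukemia against preleukemia.

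Ifitm3 was highest in preleukemia. It had 39.5 and 36.8 RPKM in leukemia, 213 and 215 RPKM in preleukemia, and 56.0 and 52.6 RPKM in mock, with no overlap between the groups. As a ratio of mean RPKM, preleukemia stood at 3.94 times mock, while leukemia stood at 0.178 times preleukemia and 0.702 times mock. The differences were 1.96 (SE 0.09) in preleukemia against mock, -0.50 (SE 0.09) in leukemia against mock and -2.46 (SE 0.09) in leukemia against preleukemia. The 2 libraries of a group lay within 1.07-fold of each other in each of the 3 groups.

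Ifitm6 had the widest range among the members with a peak in preleukemia. It had 2.20 and 4.99 RPKM in leukemia, 35.2 and 62.0 RPKM in preleukemia, and 1.45 and 3.38 RPKM in mock. The preleukemia libraries stood apart from the other four, while the ranges of leukemia and mock overlapped. Library 2 was 1.76 to 2.33 times library 1 within every group. The difference was 3.86 (SE 0.41) in preleukemia against mock, the 23rd highest of 10958 genes, and -3.45 (SE 0.41) in leukemia against preleukemia, the 12th lowest. In leukemia against mock it was 0.42 (SE 0.41), and without mock library 1 or leukemia library 2 it was 0.00 and -0.04.

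Ifitm2 was the highest member in all 6 libraries and varied least. It had 158 and 136 RPKM in leukemia, 232 and 225 RPKM in preleukemia, and 179 and 183 RPKM in mock. The groups did not overlap and kept the order of Ifitm3, with preleukemia highest and leukemia lowest, over a smaller range. The differences were 0.34 (SE 0.10) in preleukemia against mock, -0.30 (SE 0.10) in leukemia against mock and -0.64 (SE 0.10) in leukemia against preleukemia. All 3 lay within the 5th to 95th percentiles of all fitted genes. Of the 50-base stretches in the annotated transcripts of Ifitm2, 48.5% also occur in transcripts of other genes, most often in transcripts of the gene model Gm45717, so its level is uncertain. The shared stretches numbered 63 of 629 for Ifitm3, 53 of 1056 for Ifitm1 and 0 of 854 for Ifitm6.

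**Figure D1:**
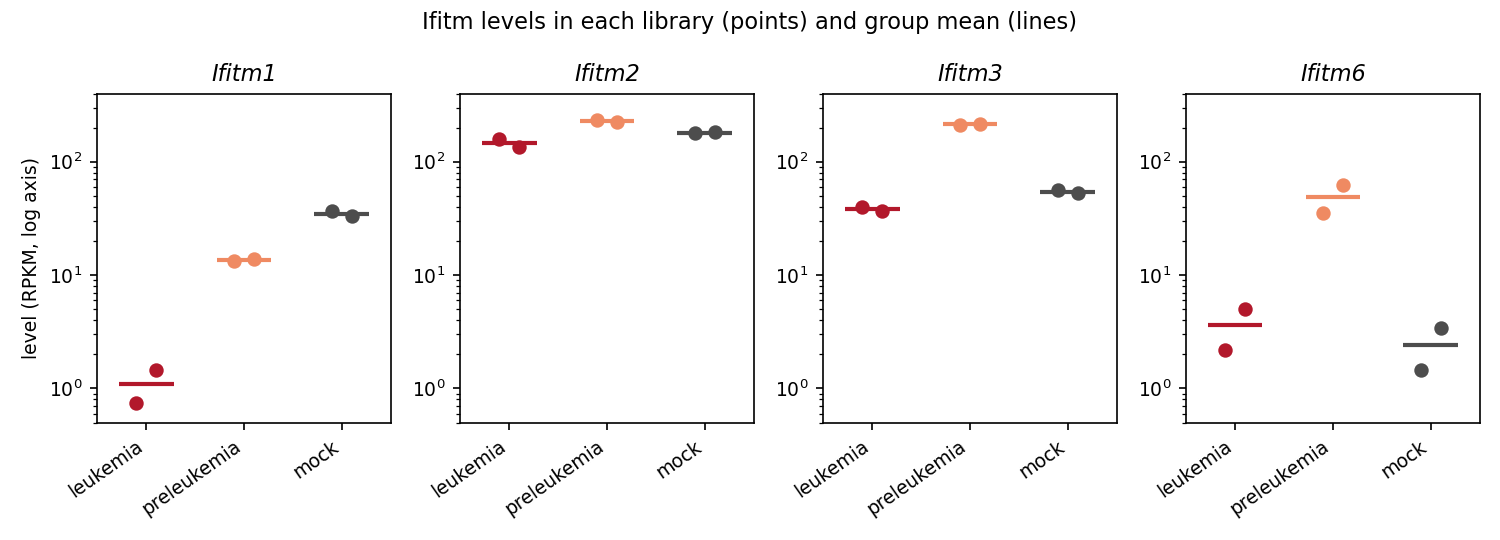
Level of each Ifitm gene in RPKM on a log axis, with a point per library and a line at the mean of the 2 libraries of a group. Ifitm1 is lowest in leukemia and highest in mock, Ifitm3 and Ifitm6 peak in preleukemia, and Ifitm2 stays between 136 and 232 RPKM.

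Libraries of the groups compared did not overlap for 4 of the 4 members in preleukemia against mock, where 62.7% of all fitted genes did not (37.2% higher and 25.5% lower). They did not overlap for 3 of 4 in leukemia against mock (65.4% of all genes, 30.0% higher and 35.5% lower) and for 4 of 4 in leukemia against preleukemia (70.7%, 24.7% higher and 46.0% lower). Since these values chose the members, nothing is read from the counts. In leukemia against preleukemia all 4 members were lower. In preleukemia against mock 3 were higher and Ifitm1 was lower. In leukemia against mock 3 were lower and Ifitm6 overlapped.

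**Figure D2:**
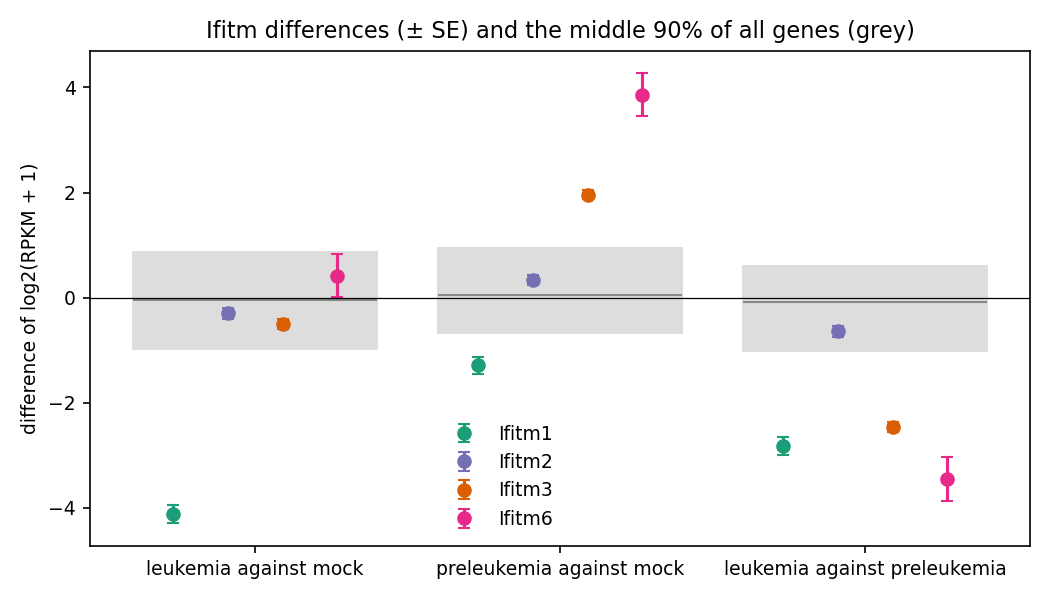
Difference of log2(RPKM + 1) for each Ifitm gene in the 3 comparisons, with bars of 1 SE from the fit over 6 libraries. The grey band runs from the 5th to the 95th percentile of all 10958 genes fitted and the grey line marks their median. Ifitm1 lies below the band in each comparison and Ifitm2 inside it in each.

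The summed level of the 4 genes was 190 ± 14.6 RPKM in leukemia, 504 ± 15.8 in preleukemia and 272 ± 0.742 in mock (SD, n = 2 each). RPKM is per length, so shares of this sum can be set side by side, but only roughly. Ifitm2, the largest part in each library, has an uncertain level, as 48.5% of its 50-base stretches are shared. The sum, every share and the order of Ifitm2 and Ifitm3 depend on it. Ifitm1 made up 0.370% and 0.804% of the sum in leukemia, 2.67% and 2.71% in preleukemia, and 13.4% and 12.2% in mock. Ifitm3 made up 19.7% and 20.5% in leukemia, 43.2% and 41.7% in preleukemia, and 20.5% and 19.4% in mock. The share of Ifitm3 in leukemia therefore overlapped that in mock, although its level was lower. Ifitm6 made up 1.10% and 2.78% in leukemia, 7.13% and 12.0% in preleukemia, and 0.533% and 1.25% in mock. Ifitm3 stood at 53.3 and 25.5 times Ifitm1 in leukemia, 16.2 and 15.4 times in preleukemia, and 1.54 and 1.59 times in mock. The order of levels was Ifitm2, Ifitm3, Ifitm6, Ifitm1 in the 4 Evi1 libraries and Ifitm2, Ifitm3, Ifitm1, Ifitm6 in the 2 mock libraries.

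**Figure D3:**
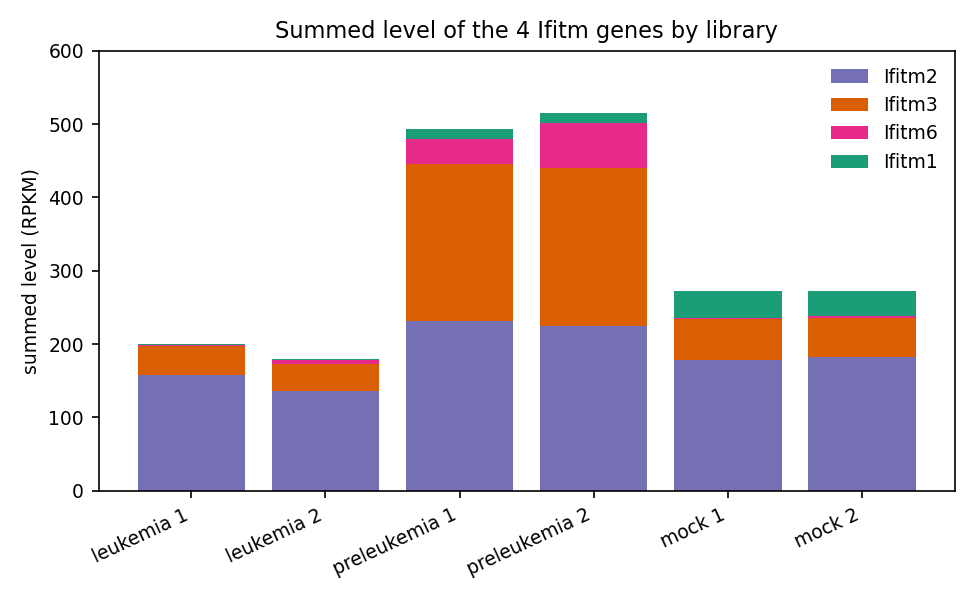
Summed RPKM of the 4 Ifitm genes in each library, stacked by gene. The preleukemia libraries sum to 493 and 516 RPKM, with nearly equal parts of Ifitm2 and Ifitm3, and Ifitm1 is visible mainly in the mock libraries.

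The patterns of the members were compared by the Euclidean distance between log2(RPKM + 1) values over the 6 libraries, each gene centred on its own mean. As the 6 libraries form 3 groups, these are descriptions. Ifitm3 and Ifitm6 lay 2.21 apart (Pearson r = 0.92). Counting the member itself, 53 genes lay nearer to Ifitm6 than Ifitm3 did, while 1636 lay nearer to Ifitm3 than Ifitm6 did. Ifitm3 and Ifitm2 lay 2.00 apart (r = 0.93). Counted likewise, 813 genes lay nearer to Ifitm3 than Ifitm2 did, and 10503 lay nearer to Ifitm2 than Ifitm3 did. Ifitm1 lay 4.00 from Ifitm3 (r = 0.39) and 5.70 from Ifitm6 (r = 0.12).

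The genes nearest to each member differed between the members. Nearest to Ifitm1 were Eltd1, an adhesion receptor gene of endothelium (distance 0.35, r = 0.997 over 6 libraries), Mfsd2b, a sphingosine-1-phosphate transporter of red cells and platelets (0.55), and Slc22a3, an organic cation transporter (0.93). Eltd1 had 0.208 and 0.539 RPKM in leukemia, 8.27 and 7.58 in preleukemia, and 27.4 and 24.8 in mock. Nearest to Ifitm3 were Ndrg2 (0.43), Hnmt, which inactivates histamine (0.53), and Prtn3, a serine protease gene of immature myeloid cells (0.56). Prtn3 had 245 and 257 RPKM in leukemia, 988 and 1041 in preleukemia, and 393 and 338 in mock. Nearest to Ifitm6 were Sgms2, a sphingomyelin synthase (1.09), Cdkn1c, which encodes the cell cycle inhibitor p57 (1.35), and G0s2, an inhibitor of triglyceride breakdown (1.37). Sgms2 had 3.03 and 5.36 RPKM in leukemia, 30.6 and 37.9 in preleukemia, and 2.63 and 5.43 in mock. Nearest to Ifitm2 were the vesicle transport GTPases Arf5 (0.12) and Arf2 (0.16), and Pla2g4a, a phospholipase that releases arachidonic acid (0.16).

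The other Ifitm genes in the table were low. Ifitm7, on chromosome 16, had 2.79 and 2.74 RPKM in leukemia, 2.25 and 1.58 in preleukemia, and 2.57 and 2.31 in mock. It did not pass limma's test in any comparison (adjusted p = 0.146 to 0.569), with differences of -0.25 in preleukemia against mock, 0.13 in leukemia against mock and 0.38 in leukemia against preleukemia (SE 0.16 each). Ifitm5, a bone gene that lies 4.5 kb before the cluster, stayed under 1 RPKM in all 6 libraries, 0.327 to 0.979. Ifitm10 was at 0 in 5 libraries and at 0.0207 RPKM, 2 reads, in mock library 2. A count of 0 allows up to 0.0289 to 0.0370 RPKM (3 reads) for Ifitm10 in those 5 libraries, for counting error only.

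Of the 3 nearest named protein-coding genes on each side of the cluster, 4 passed the filter. B4galnt4, a glycosyltransferase gene 43.2 kb after the cluster, had 3.79 and 2.59 RPKM in leukemia, 4.26 and 4.87 in preleukemia, and 0.715 and 1.27 in mock. It rose by 1.49 in preleukemia against mock (limma adjusted p = 0.00525; adjusted p = 0.0543 without preleukemia library 2) and by 1.07 in leukemia against mock (adjusted p = 0.0122; adjusted p = 0.0796 without leukemia library 1). Sigirr, an inhibitory receptor of interleukin-1 signalling, rose by 0.46 in leukemia against mock (adjusted p = 0.0251), which did not pass without either library of leukemia or of preleukemia (adjusted p up to 0.144). Athl1, listed as Pgghg in the annotation, and Pkp3 did not pass in any comparison. Nlrp6 and Ifitm5 were below the filter. Along this stretch B4galnt4, Ifitm2, Ifitm3 and Ifitm6 were higher in preleukemia than in mock, and of these only B4galnt4 was tested. Pkp3 and Sigirr, which did not pass in this comparison, had differences of 0.25 and 0.27, near the 0.34 of Ifitm2. Athl1 was at -0.03. Ifitm1, which lies between Ifitm2 and Ifitm3, was lower.

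**Figure D4:**
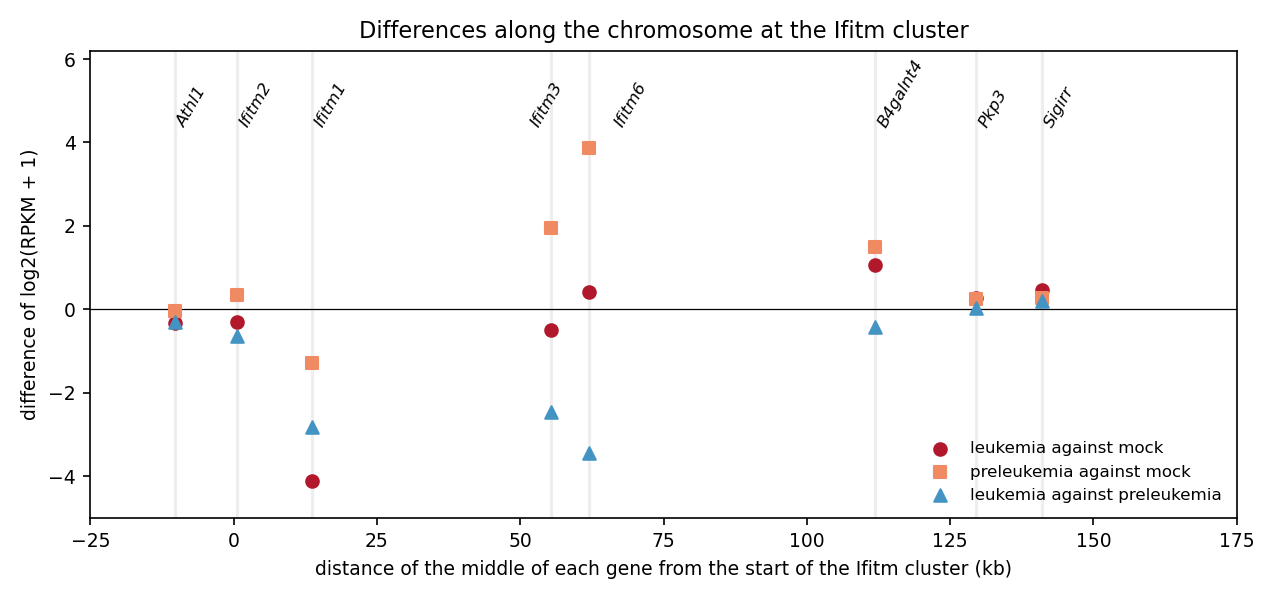
Difference of log2(RPKM + 1) for the Ifitm genes and the 4 fitted neighbours, plotted at the distance in kb of the middle of each gene from the start of the cluster. Ifitm1 lies below 0 in all 3 comparisons, and the squares of Ifitm3, Ifitm6 and B4galnt4 (preleukemia against mock) lie at 1.96, 3.86 and 1.49.

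Genes that interferon switches on were set beside the members, since the family belongs to that response. Of 39 listed, 38 were fitted. In preleukemia against mock 23 rose, 0 fell and 15 did not pass limma's test, where 19.5% of all genes passed (1480 higher and 660 lower). Among the 23, Ifit1, Ifi44 and Zbp1, named after their values were seen, reached 1 RPKM in the preleukemia libraries only. They entered the fit through the group where they were high and could only be called higher. When either preleukemia library was left out they were below the filter, and 35 of the listed genes were fitted. The median difference was 0.80, against 0.05 for all genes. Oas2, an antiviral oligoadenylate synthetase, had 13.2 ± 1.75 RPKM in preleukemia and 1.17 ± 0.256 in mock (SD, n = 2 each; difference 2.71, adjusted p = 0.000311), and its relative Oasl2 rose by 1.74 (adjusted p = 0.000892). Samhd1, which removes deoxynucleotides, rose by 1.12 (adjusted p = 0.00105) and Trim30a by 1.09 (adjusted p = 0.00146). Without preleukemia library 1 the count was 12 and without preleukemia library 2 it was 9, and in both cases 0 fell. Higher calls made up 69.2% of all 2140 calls in this comparison. With TMM-like scaling that share was 58.6%, and it was 52.9% once the libraries were quantile normalized. Of the listed genes, 23 rose and 0 fell with TMM-like scaling, and 22 rose and 0 fell with quantile normalization.

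In leukemia against preleukemia 21 of the 38 interferon-stimulated genes fell, 2 rose and 15 did not pass, where 18.3% of all genes passed (1428 lower and 578 higher). Among the 21, Ifi44 and Zbp1 reached 1 RPKM in the preleukemia libraries only, so they could only be called lower. The median difference was -0.63, against -0.09 for all genes. Oas2 had 2.04 ± 0.112 RPKM in leukemia and 13.2 ± 1.75 in preleukemia (difference -2.22, limma adjusted p = 0.000937). Isg15, a ubiquitin-like modifier, fell by 1.41 (adjusted p = 0.00264), Oasl2 by 1.25 (adjusted p = 0.00276) and Rtp4 by 1.75 (adjusted p = 0.00276). The 2 that rose were Rsad2, which encodes viperin, and Gbp3, a guanylate-binding protein gene, both named after their values were seen (1.22 and 1.15, adjusted p = 0.0123 and 0.0125). Both lost significance when preleukemia library 2 or leukemia library 1 was left out (adjusted p up to 0.101 and 0.104). The number lower was 7 and 9 when preleukemia library 1 or 2 was left out, and 9 and 10 when leukemia library 1 or 2 was. Higher calls made up 28.8% of all 2006 calls here. With TMM-like scaling that share was 42.0%, and it was 50.8% once the libraries were quantile normalized. Of the listed genes, 19 fell and 2 rose with TMM-like scaling, and 18 fell and 2 rose with quantile normalization. The comparisons share the preleukemia libraries, so they are not independent of each other.

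In leukemia against mock 8 of the 38 interferon-stimulated genes rose, 4 fell and 26 did not pass (25.6% of all genes passed, 1328 higher and 1481 lower), with a median of 0.05 against -0.04 for all genes. Samhd1 rose by 1.28 (limma adjusted p = 0.000436) and Rsad2 by 1.79 (adjusted p = 0.00238). Isg20, an exonuclease gene, fell by 1.51 (adjusted p = 0.00364) and Tap1, a peptide transporter gene of antigen presentation, by 0.78 (adjusted p = 0.00614). The total of 12 was 4 and 6 when leukemia library 1 or 2 was left out, and 7 when either preleukemia library was. The number lower was 7 when mock library 2 was left out. Ifitm1 in this comparison lay below each of these 38 genes, at -4.12 against -1.51 for Isg20, which is given as a description.

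**Figure D5:**
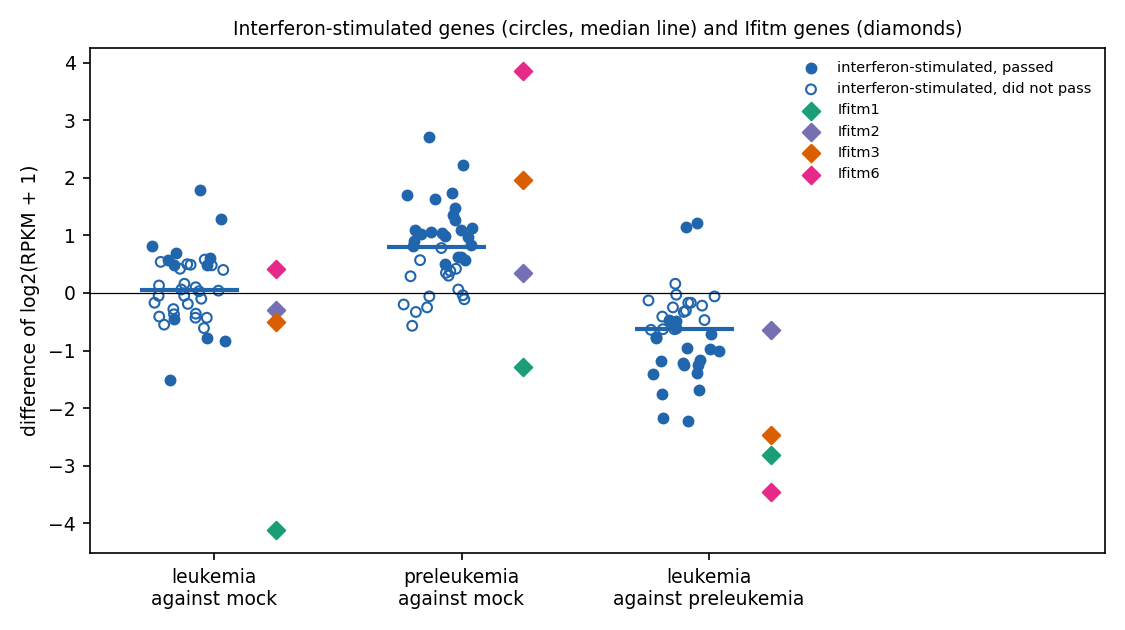
Difference of log2(RPKM + 1) for 38 interferon-stimulated genes (circles, filled where limma's adjusted p was under 0.05, with a line at the median) and the 4 Ifitm genes (diamonds) in each comparison. The medians are 0.05, 0.80 and -0.63 from left to right, and Ifitm1 lies below all circles in each comparison.

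The 9 interferon genes themselves were at 0 in both leukemia libraries, both preleukemia libraries and mock library 1, and 3 of them (Ifnb1, Ifna2 and Ifng) were at 0.041 to 0.129 RPKM in mock library 2. Of 14 receptors and signal carriers 5 rose in preleukemia against mock, 0 fell and 9 did not pass (19.5% of all genes passed). Stat2, a factor of the type I response, rose by 0.69 (limma adjusted p = 0.0102), and its partner Irf9 (0.44, adjusted p = 0.0370), Irf7 (0.58, adjusted p = 0.0393) and the kinase gene Tyk2 (0.54, adjusted p = 0.0474) also rose. This count of 5 was 1 with TMM-like scaling and 2 with quantile normalization, where 1 gene fell. It was 0 when either preleukemia library was left out, 1 when either leukemia library was, and 3 when mock library 2 was. In leukemia against preleukemia 4 of the 14 fell and 2 rose (18.3% of all genes passed). Irf7 fell by 1.15 (adjusted p = 0.00486) and passed without each of the 6 libraries in turn. Those that fell included Ifngr1, a receptor of interferon gamma (-1.01, adjusted p = 0.0139), and Jak2 (-0.48, adjusted p = 0.0215), while Jak1 and Irf2 rose. In leukemia against mock 3 rose (Jak1, Irf2 and Ifnar1) and 3 fell (Ifngr1, Jak2 and Irf7), where 25.6% of all genes passed. None of the 6 calls in leukemia against mock, and of those in leukemia against preleukemia only Irf7, passed when leukemia library 1 was left out. When either preleukemia library was left out, 1 rose and 1 fell in leukemia against mock, and 1 fell in leukemia against preleukemia.

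Of 15 genes known to bind or modify Ifitm proteins, 14 were fitted, and Cav1 was at 0 in all 6 libraries. Nedd4, a ubiquitin ligase that marks Ifitm3 for breakdown, had 3.04 and 4.98 RPKM in leukemia, 26.2 and 21.2 in preleukemia, and 36.7 and 27.8 in mock. The leukemia libraries were low and did not overlap either other group. Nedd4 fell in leukemia against mock (difference -2.74, limma adjusted p = 0.000684) and in leukemia against preleukemia (difference -2.32, adjusted p = 0.00233), and passed in both without each of the 6 libraries in turn. In preleukemia against mock its difference was -0.42 (adjusted p = 0.225). Cd81, a tetraspanin known as a partner of Ifitm1, had 10.7 and 11.3 RPKM in leukemia, 20.8 ± 0.321 in preleukemia and 30.1 ± 10.1 in mock (SD, n = 2 each). The leukemia libraries were the lowest. Cd81 fell by 1.34 in leukemia against mock (adjusted p = 0.00568) and by 0.86 in leukemia against preleukemia (adjusted p = 0.0323). The second of these did not pass with quantile normalization or when any of the 4 libraries compared was left out (adjusted p up to 0.163).

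Cd9, another tetraspanin, had 11.5 and 13.8 RPKM in leukemia, 21.2 and 24.0 in preleukemia, and 12.4 and 10.2 in mock, so that only the preleukemia libraries stood apart. Cd9 rose by 0.94 in preleukemia against mock (limma adjusted p = 0.00718; adjusted p = 0.0745 without preleukemia library 2). Over the 14 genes, 2 rose and 1 fell in preleukemia against mock. That is about the share of all genes (19.5% passed), so nothing about the partners is read from it. In leukemia against mock 1 rose and 4 fell (25.6% of all genes passed). In leukemia against preleukemia 1 rose and 4 fell (18.3% of all genes passed). With a library left out, the number that rose in preleukemia against mock was 0 to 6 and the number that fell was 0 to 3. The number that fell was 2 in leukemia against mock when either leukemia library was left out, and 1 to 7 in leukemia against preleukemia. Zdhhc20, which attaches palmitate to Ifitm3, Zmpste24, a protease that works with Ifitm proteins, and Vcp, which takes part in their turnover, did not pass in any comparison. The kinase gene Fyn, which phosphorylates Ifitm3, fell by 0.58 in preleukemia against mock (adjusted p = 0.0216) and rose by 0.72 in leukemia against preleukemia (adjusted p = 0.0112). Neither of the Fyn calls passed without preleukemia library 1 or 2, and the second did not pass without leukemia library 1.

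Markers of other cell types moved in the same comparisons as the members. Of all fitted genes, 19.5% passed limma's test in preleukemia against mock and 25.6% in leukemia against mock. In leukemia against preleukemia 18.3% of all genes passed. The marker counts below stand beside these shares. The 10 neutrophil markers summed to 471 and 769 RPKM in leukemia, 3926 and 8343 in preleukemia, and 43.4 and 39.3 in mock. In preleukemia against mock 7 of 10 rose, 0 fell and 3 did not pass, and in leukemia against preleukemia 5 fell and 0 rose. S100a8, a calprotectin subunit gene, rose by 8.75 in preleukemia against mock (limma adjusted p = 9.42e-05) and fell by 3.36 in leukemia against preleukemia (adjusted p = 0.00236). The sum, most of it S100a8 and S100a9, was highest in the preleukemia libraries, as were Ifitm3 and Ifitm6, but not every marker was. Cxcr2, a chemokine receptor gene of neutrophils, had 11.5 and 10.8 RPKM in leukemia, 8.94 and 7.07 in preleukemia, and 1.11 and 0.830 in mock. Library 2 was above library 1 in both the sum and Ifitm6 in leukemia and preleukemia, whereas in mock it was above in Ifitm6 and below in the sum. In leukemia against mock 5 of the 10 neutrophil markers rose, whereas Ifitm3 was lower and Ifitm6 overlapped. In leukemia against preleukemia the number lower was 2 when leukemia library 1 was left out and 3 when preleukemia library 2 was, and in leukemia against mock the number higher was 3 when leukemia library 2 was. The part of neutrophil RNA in the levels of Ifitm3 and Ifitm6 was not tested. The 10 monocyte and macrophage markers summed to 502 and 557 RPKM in leukemia, 671 and 675 in preleukemia, and 493 and 704 in mock. Within this sum single markers differed in opposite directions. Of 9 fitted in leukemia against mock 2 rose (F13a1 by 1.55 and Cd68 by 1.64, limma adjusted p = 0.00309 and 0.000763) and 4 fell, among them Ccr2 by 1.48 (adjusted p = 0.000499) and Klf4 by 2.49 (adjusted p = 0.00324). Ly6c2, named after its values were seen, had 5.68 and 34.8 RPKM in leukemia, 264 and 301 in preleukemia, and 277 and 390 in mock. The counts in preleukemia against mock were 2 higher and 2 lower, and when either preleukemia library was left out 0 rose and 1 fell. In leukemia against preleukemia 1 rose and 3 fell, and 0 or 1 fell when either leukemia or either preleukemia library was left out, while 3 rose when either mock library was.

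Stem cell and mast cell markers were set beside Ifitm1. Of 12 stem cell markers 9 were fitted. In leukemia against mock 7 fell and 1 (Mecom, which the vector carries) rose, where 25.6% of all genes passed. Hlf, a transcription factor of stem cells, had 0 in both leukemia libraries and 2.53 ± 0.0596 RPKM in mock (SD, n = 2), and fell (limma adjusted p = 0.00129). Tek, an angiopoietin receptor, fell by 1.04 (adjusted p = 0.00731; adjusted p = 0.0563 without leukemia library 1). In preleukemia against mock, where Ifitm1 was also lower, 3 rose (Mecom, Ly6a and Tie1) and 0 fell (19.5% of all genes passed). Mecom reached 1 RPKM in the Evi1 libraries only, so it entered the fit through the groups transduced with Evi1. In leukemia against preleukemia, where Ifitm1 was lower too, 6 fell and 0 rose (18.3% of all genes passed). The number of stem cell markers that fell in leukemia against mock was 2 without leukemia library 1 and 4 without leukemia library 2. Of 7 fitted markers of mast cells and basophils, 6 fell in leukemia against mock and 5 fell in preleukemia against mock. In leukemia against preleukemia 2 of the 7 fell and 0 rose. Left with 1 mock library, 3 of 5 fitted fell in preleukemia against mock for either mock library, and 3 of 5 in leukemia against mock when mock library 1 was left out. In these fits Hdc and Prss34 were below the filter, and Fcer1a did not pass in leukemia against mock when mock library 1 was left out. The 9 listed summed to 74.4 and 73.5 RPKM in leukemia, 77.6 and 64.4 in preleukemia, and 172.5 and 120.7 in mock, with Cma1 and Tpsb2 at 0 in all 6 libraries. Prss34, a basophil protease gene, had at most 0.0486 RPKM in the 4 Evi1 libraries and 13.6 ± 3.46 RPKM in mock (SD, n = 2). Prss34 and Hdc reached 1 RPKM in the mock libraries only. They entered the fit through the group where they were high, so against mock they could only be called lower. The part of stem cells, mast cells and basophils in the level of Ifitm1 was not tested.

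The 8 erythroid markers in the table summed to 4.00 and 12.3 RPKM in leukemia, 186 and 115 in preleukemia, and 365 and 150 in mock. Of 7 fitted, 6 fell in leukemia against mock and 7 fell in leukemia against preleukemia. In preleukemia against mock 1 rose (Hba-a1 by 2.06, limma adjusted p = 0.0316), 0 fell and 6 did not pass. Of all genes, 25.6% passed in leukemia against mock, 18.3% in leukemia against preleukemia and 19.5% in preleukemia against mock. The 6 megakaryocyte markers summed to 4.78 and 13.7 RPKM in leukemia, 72.0 and 52.8 in preleukemia, and 32.7 and 32.3 in mock. Of these 6 genes 2 fell in leukemia against mock (Pf4 and Itga2b) and 4 did not pass, and 1 fell when either mock or either preleukemia library was left out. Pf4, Vwf and Ppbp rose in preleukemia against mock and 3 did not pass, and 1 rose when preleukemia library 1 was left out. Ppbp reached 1 RPKM in the preleukemia libraries only, so against mock it could only be called higher. Pf4, which encodes platelet factor, made most of the preleukemia sum. Itga2b had 2.74 and 9.26 RPKM in leukemia, 9.39 and 7.97 in preleukemia, and 17.3 and 16.6 in mock. The 7 B-lymphoid markers in the table summed to 12.5 and 11.8 RPKM in leukemia, 15.4 and 16.6 in preleukemia, and 19.9 and 27.2 in mock. Of 5 fitted, 4 fell (Vpreb1, Igll1, Cd79a and Il7r) and Cd79b rose, both in leukemia against mock and in preleukemia against mock. Igll1 and Il7r reached 1 RPKM in the mock libraries only. They entered the fit through the group where they were high, so they could only be called lower. Cd79b, a subunit gene of the B cell receptor complex, made most of the sum in the leukemia libraries, with 12.2 and 11.7 RPKM in leukemia, 14.1 and 13.6 in preleukemia, and 9.01 ± 0.712 (SD, n = 2) in mock. Its rise did not pass in either comparison when a preleukemia library was left out (adjusted p up to 0.107 in preleukemia against mock by limma), nor in leukemia against mock when mock library 1 or a leukemia library was (adjusted p up to 0.213). Vpreb1, part of the surrogate light chain, had 0.0428 and 0 RPKM in leukemia, 0.584 and 1.20 in preleukemia, and 3.41 and 6.14 in mock. When either mock library was left out, 2 of 3 fitted fell in both comparisons, and 2 of 5 fell in preleukemia against mock when preleukemia library 1 was. The part of these cells in the levels of the Ifitm genes was not tested.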

How the data were processed

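Messenger RNA of 6 libraries was sequenced from bone marrow cells sorted by flow cytometry, per the labels' protocols, with the NEBNext Ultra RNA kit. CASAVA 1.8.2 and GRCm38 are listed in the submitters' processing notes, with no step attached to either. The aligner, counter and annotation were not given in the sources used here. The authors deposited 1 value per gene and library in RPKM, a unit read off the numbers, since after multiplication by GENCODE M21 exon lengths 64.1% to 66.0% of the products below 20 were no more than 0.02 from a whole number (4% by chance). Read numbers of the members are these products, rounded, and are approximate where the authors' gene model differs. Of the rows, 35433 (91.0%) matched 1 gene. Nothing in the labels says that strand was recorded.

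Differences were computed here with limma 3.58.1 in R 4.3.3 on log2(RPKM + 1), which understates changes of low genes. Genes reaching 1 RPKM in 2 or more libraries (10958) were fitted on the means of 3 groups over all 6 libraries, without covariates, with a spread that follows the mean level (3 residual and 3.70 prior degrees of freedom). Tests were two-sided, with Benjamini-Hochberg adjustment over all genes at 0.05. The fit was tested on simulated data. The members, the lists from general knowledge and the naming rule were chosen with earlier results of these data known. The rule named the members, the other Ifitm genes, the 3 nearest neighbours on each side, the 3 genes nearest in pattern, any member of the short lists and up to 4 genes with the smallest p of the longer ones, not all of which are reported. Hbb-b1 and Ebf1 were not analysed here, and values of some genes counted in the lists are not reported here. Alternatives were other pseudocounts, filters, scalings, fits without the uninvolved group, a block for the replicate number, and each library left out.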

Additional observations from a re-analysis of the deposited data

How the results depend on the processing

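With 2 libraries per group, the counts of calls changed when single libraries were left out. The directions of the Ifitm differences are given as a description, since these values chose the members. Of 156 recomputed member differences (12 differences, 13 alternatives), 136 moved by less than 1 SD between libraries. Of the rest, 18 moved by more and 2 changed sign. The 136 include differences that could not move. Other filters, the block and fits without the uninvolved group leave a difference of group means unchanged. So does leaving out a library of a group outside the comparison. The count of 136 is therefore no measure of robustness. Both changes of sign were for Ifitm6 in leukemia against mock (0.42), which was 0.00 without mock library 1 and -0.04 without leukemia library 2. This difference ranged from -0.04 to 0.87. With a pseudocount of 0.1, Ifitm6 differed by 4.33 in preleukemia against mock, and Ifitm1 by -4.94 in leukemia against mock and -3.59 in leukemia against preleukemia. TMM-like scaling gave -2.36 for Ifitm3 in leukemia against preleukemia. Quantile normalization, which shifted the median of all genes in leukemia against preleukemia from -0.091 to 0.031, gave 0.23 for Ifitm2 and 1.82 for Ifitm3 in preleukemia against mock, and -0.45 and -2.29 in leukemia against preleukemia. Leaving out each library in turn gave 3.44 to 4.28 for Ifitm6 in preleukemia against mock and -3.90 to -3.00 in leukemia against preleukemia. It gave -4.36 to -3.87 for Ifitm1 in leukemia against mock and -3.07 to -2.58 in leukemia against preleukemia.

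Over all genes, 2140 were called in preleukemia against mock (463 to 3766 with a library left out, 1387 with only the 4 libraries compared), 2809 in leukemia against mock (980 to 3697) and 2006 in leukemia against preleukemia (404 to 3453, 1302 without a filter, 3419 with only the 4 libraries compared). Interferon-stimulated genes called were 23 (9 to 26), 12 (4 to 16) and 23 (8 to 27) in the same order. Without a filter they were 7 in leukemia against mock and 14 in leukemia against preleukemia, and with only the 4 libraries compared they were 7 in leukemia against mock. The cause was not tested. With the replicate number as a block, 2118, 2932 and 2060 genes and 23, 12 and 24 interferon-stimulated genes were called. The labels do not say that the numbers pair the libraries, and the deviations of same-numbered libraries correlated at 0.12, 0.01 and 0.18 across genes. The list counts for receptors, partners, markers and neighbours without each library and with other scalings were chosen after seeing the data.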
